A study of Mus musculus with 2 samples.

Results

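The 32 glycolysis and hypoxia-response genes described here are 16 genes that carry glucose to lactate (Slc2a1, Hk1, Hk2, Gpi1, Pfkl, Pfkp, Pfkfb3, Aldoa, Tpi1, Gapdh, Pgk1, Pgam1, Eno1, Pkm, Ldha and Slc16a3) and 16 other genes of the response to low oxygen (Pdk1, Bnip3, Car9, Adm, Ndrg1, Egln1, Egln3, Ankrd37, P4ha1, P4ha2, Plod2, Mxi1, Higd1a, Hif1a, Ddit4 and Kdm3a). They were chosen by name from the 32285 features of the count tables, and all 32 were found. Aldoa is listed under 2 identifiers, whose counts were added. Their unique molecular identifiers (UMIs, each standing for 1 captured RNA molecule) were counted in subcutaneous mouse ovarian tumors, across cell lineages and between WT and TSK hosts.

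The tumors grew from SO cells, a syngeneic ovarian cancer line that lacks p53 and carries HRAS V12 and MYC, in female C57BL/6 mice of 6 to 8 weeks of age. WT hosts were compared with TSK hosts, which carry an intragenic duplication in 1 copy of Fbn1 in all cells and are used as a model of systemic sclerosis. The cancer cells come from the same line in both hosts and so lack the TSK allele. Tumors of 4 mice per genotype were pooled, digested at 37 °C, depleted of red and dead cells and sequenced without selection of cell types, as 1 library of 3′ ends per genotype. Because each genotype has a single library, hosts were compared without any test, and genotype, pool and library cannot be told apart. All intervals given are 95% and cover counting error only.

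Glycolysis splits glucose into pyruvate in the cytosol and needs no oxygen. When oxygen is scarce, lactate dehydrogenase turns pyruvate into lactate, which restores the NAD+ that the pathway needs. The same shortage stabilises the transcription factor HIF-1α, because the prolyl hydroxylases that mark it for degradation use oxygen as a substrate. HIF-1α raises transcription of nearly every glycolytic enzyme, of glucose and lactate transporters, and of genes that restrain mitochondrial respiration, adjust acid-base balance, modify collagen or limit HIF itself. Macrophages, neutrophils and activated T cells also use glycolysis when oxygen is plentiful.

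HIF binds DNA at a short core, ACGTG or GCGTG. RefSeq promoter windows (GRCm38.p6, 250 bases before to 50 after a start site) were matched by symbol for 30 of the 32 genes, in 43 windows; none was matched for Ndrg1 and Plod2. On either strand, ACGTG occurred in 58.1% of these windows (25 of 43) and in 19.6% of all 32851 windows of the table, and GCGTG in 51.2% and 32.4%. The windows of these genes were also richer in G and C, with a median of 65.0% against 52.7%, and the part of base composition in the motif counts was not tested. The 4 windows printed here belong to the 2 genes of each list that differed most between macrophages with and without Arg1. They read 5′ to 3′ on the strand of the gene. Capitals mark both cores. A core on the other strand would be marked where its reverse complement stood, and CACGTG, which holds ACGTG on each strand, counts as 2.
Pfkl, chr10:78009758-78010057, minus strand: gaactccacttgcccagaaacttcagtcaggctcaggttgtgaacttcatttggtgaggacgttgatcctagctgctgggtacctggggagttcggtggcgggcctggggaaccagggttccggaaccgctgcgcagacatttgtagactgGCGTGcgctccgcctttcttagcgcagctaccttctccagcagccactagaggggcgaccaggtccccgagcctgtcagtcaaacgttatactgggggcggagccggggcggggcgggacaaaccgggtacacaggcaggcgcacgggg
Slc16a3, chr11:120948817-120949116, plus strand: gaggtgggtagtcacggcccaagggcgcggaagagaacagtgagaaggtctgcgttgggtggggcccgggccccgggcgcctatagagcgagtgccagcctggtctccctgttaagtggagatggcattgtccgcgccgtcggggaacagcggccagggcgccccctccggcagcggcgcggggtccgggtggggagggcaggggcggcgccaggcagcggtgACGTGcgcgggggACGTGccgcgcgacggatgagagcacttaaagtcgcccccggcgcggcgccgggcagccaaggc
Egln3, chr12:54203825-54204124, minus strand: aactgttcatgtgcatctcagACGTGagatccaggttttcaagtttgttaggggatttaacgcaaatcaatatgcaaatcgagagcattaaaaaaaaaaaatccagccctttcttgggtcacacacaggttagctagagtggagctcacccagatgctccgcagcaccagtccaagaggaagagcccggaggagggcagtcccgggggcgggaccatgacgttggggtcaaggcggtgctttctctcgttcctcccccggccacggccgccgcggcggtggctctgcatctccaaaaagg
Ddit4, chr10:59951721-59952020, minus strand: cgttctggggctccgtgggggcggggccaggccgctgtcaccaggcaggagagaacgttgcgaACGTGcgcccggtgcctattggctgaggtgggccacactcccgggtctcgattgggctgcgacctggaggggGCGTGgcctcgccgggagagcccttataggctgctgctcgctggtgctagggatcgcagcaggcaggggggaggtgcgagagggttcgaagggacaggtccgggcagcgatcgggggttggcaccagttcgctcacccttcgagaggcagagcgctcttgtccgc
Slc16a3 held 2 copies of ACGTG, Egln3 1, Ddit4 1 of each core and Pfkl only 1 GCGTG. A match describes the letters and is no evidence of binding.

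The WT library held 2332 barcodes and the TSK library 4436, of which 263 were shared and left out. After filtering, 1442 WT and 2961 TSK cells remained. Cells were named from raw UMIs of marker lists, and those with markers of a second lineage (159 WT and 654 TSK cells) or with too few marker UMIs (232 and 480) were left unnamed. The 6 lineages compared were cancer (55 WT and 617 TSK cells), macrophage (296 and 404), neutrophil (34 and 204), T (443 and 263), fibroblast (146 and 258) and endothelial cells (46 and 37). Each of the 5 lineages other than cancer held UMIs of all of its own markers in both libraries. Among the 5 cancer markers, Krt7 was at 0 in TSK cancer cells. Median UMIs per cell were lower in TSK in all 6, from 28929 against 30570 in cancer cells to 3003 against 6828 in T cells and 10678.5 against 21052.5 in fibroblasts. TSK cells of the 5 other lineages carried more RNA of the cancer markers. These summed to between 2.26% and 7.52% of the level in TSK cancer cells, and to between 0.138% and 0.422% in the WT library. Hmga2, a gene high in these cancer cells, reached 43.2% of the cancer level in TSK fibroblasts and 23.0% in TSK neutrophils, and at most 3.20% in the other TSK lineages. In the unnamed TSK cells with markers of a second lineage, cancer markers stood at 78.2% and Hmga2 at 98.5% of the cancer level. In those of WT the values were 38.5% and 45.1%. The TSK ones held 18693696 UMIs and the named TSK cancer cells 18164710, so that comparisons of cancer cells cover the named cells only. Krt8 and Krt7 were at 0 in TSK neutrophils, T cells and endothelial cells, Krt8 in TSK macrophages and Krt7 in TSK fibroblasts. In WT, Krt8 was at 0 in macrophages, Krt8 and Krt7 in endothelial cells, and Krt18, Krt8 and Krt7 in fibroblasts. WT neutrophils lacked Lgals7, Cdkn2a, Krt8 and Krt7.

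Cancer cells, macrophages and neutrophils had the highest summed glycolysis level, and fibroblasts, T cells and endothelial cells the lowest. Levels are UMIs per 1000000 UMIs of the lineage (CPM). In the WT library the 16 glycolysis genes summed to 7583 CPM in cancer cells (7452 to 7715), 5350.0 in macrophages, 5134 in neutrophils, 2670 in T cells, 1946 in fibroblasts and 1879 in endothelial cells. Macrophages and neutrophils did not differ beyond their intervals, and neither did fibroblasts and endothelial cells. In the TSK library the order was neutrophils (8668 CPM, 8412 to 8929), cancer cells (7889), macrophages (7224), fibroblasts (4460.2), endothelial cells (3870.1) and T cells (3629), with the intervals of the last 2 overlapping. The lead of cancer cells over macrophages was a log2 ratio of 0.50 in WT and 0.13 in TSK.

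The other hypoxia-response genes were spread more evenly. They summed to 1830.1 CPM in WT cancer cells, 1477 in neutrophils, 1408 in fibroblasts, 1331 in macrophages, 1106 in T cells and 821 in endothelial cells, and the intervals of neutrophils, fibroblasts and macrophages overlapped. TSK neutrophils (2339 CPM) and fibroblasts (2158) came first, then cancer cells (1776), macrophages (1772), T cells (1382) and endothelial cells (1265). The log2 ratio of cancer cells over macrophages was 0.46 in WT, where it became -0.018 in cells with at most 10000 UMIs, and 0.0033 in TSK. Genes of oxidative metabolism (22 genes of the citric acid cycle and respiratory chain) were ordered differently, with neutrophils lowest in both libraries (531 CPM in WT and 1267 in TSK, against 3743 and 4369 in cancer cells).

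**Figure D1:**
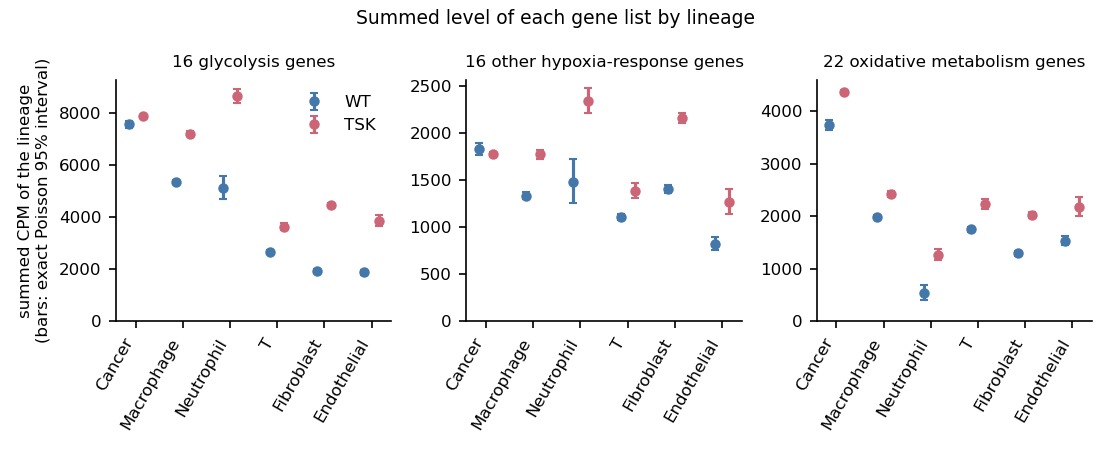
Summed CPM of each gene list (vertical axes, from 0) in 6 lineages (horizontal axes) for the WT and TSK libraries, with exact Poisson 95% intervals. Neutrophils were among the highest lineages for glycolysis in TSK (8668 CPM) and the lowest for oxidative metabolism (1267 CPM).

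RNA of the transporters for glucose uptake and lactate export was highest in neutrophils. Slc2a1, the glucose transporter GLUT1, stood at 567 CPM in WT and 424 in TSK neutrophils, followed by macrophages (175 and 225) and cancer cells (167 and 124), and was between 36.2 and 114 CPM in the other lineages. Slc16a3, the lactate exporter MCT4, stood at 531 and 529 CPM in neutrophils and at 206 and 185 in macrophages, against 41.4 and 43.4 in cancer cells. Of the 31 members with at least 50 UMIs over the 6 lineages in each library, 9 were highest in neutrophils in both libraries: Slc2a1, Hk1, Pfkl, Pfkp, Pfkfb3, Slc16a3, Bnip3, Ankrd37 and Kdm3a. Some ranks rest on few UMIs: in WT neutrophils Ankrd37 had 5 (45.0 CPM, 14.6 to 105) and Pfkl 10 (90.1 CPM, 43.2 to 166). The neutrophil intervals of Pfkl, Pfkp, Bnip3 and Ankrd37 in WT, and of Hk1, Pfkl and Ankrd37 in TSK, overlapped that of another lineage. Among all genes 7.98% were highest there. Hk1 (a hexokinase), Pfkl and Pfkp (phosphofructokinase subunits) and Pfkfb3, which makes the activator of phosphofructokinase, act at the early, regulated steps.

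Several enzymes of the lower pathway were highest in cancer cells in both libraries. Gapdh, which oxidises glyceraldehyde 3-phosphate, had 1811 CPM in WT and 1462 in TSK cancer cells, the most UMIs of any member. Pgk1, the first ATP-forming enzyme, stood at 897 and 927 CPM, and Ldha, which makes lactate, at 778 and 1065. With Eno1 (enolase), Pdk1 and Egln1 these made 6 members highest in cancer cells in both libraries, where 21.2% of all genes were highest, so that the share of members was near that of all genes. Pkm, the pyruvate kinase, was highest in cancer cells in WT (916 CPM) and in neutrophils in TSK (1018 CPM, against 1002 in cancer cells). Reads of Eno1 may be split with its near-identical copy Eno1b, so its level is uncertain. Pdk1 inhibits pyruvate dehydrogenase and so keeps pyruvate out of the mitochondria, and Egln1 is the main prolyl hydroxylase of HIF.

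Fibroblasts had the highest levels of hexokinase 2 and of the collagen-modifying enzymes Plod2 and P4ha2 in both libraries. Hk2, the inducible hexokinase, stood at 423 CPM (401 to 447) in WT and 800 (767 to 833) in TSK fibroblasts, where WT neutrophils had 378 (273 to 511) and TSK neutrophils 660 (591 to 735), so that the WT intervals overlapped. In endothelial cells Hk2 had 3 UMIs in WT and 5 in TSK (4.07 and 17.4 CPM). Plod2, a collagen lysyl hydroxylase, stood at 258 and 404 CPM in fibroblasts and 165 and 198 in cancer cells, and at no more than 49.7 CPM elsewhere. P4ha2, a collagen prolyl hydroxylase subunit, had 91.9 and 146 CPM in fibroblasts and at most 28.9 in any other lineage. P4ha1, another collagen prolyl hydroxylase subunit, was higher in cancer cells (181 CPM) than in fibroblasts (143) in WT and highest in fibroblasts in TSK (239). Adm, which encodes the vasodilator adrenomedullin, and Ndrg1, a stress-response gene, completed the 5 members highest in fibroblasts, and 11% of all genes were highest there.

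Hif1a itself was highest in T cells, at 468 CPM in WT and 658 in TSK, and lowest in cancer cells, at 183 and 164. It was the only member highest in T cells in both libraries, where 11.1% of all genes were highest, and no member was highest in macrophages or endothelial cells (8.03% and 8.12% of all genes). HIF-1α is controlled largely at the protein level, which UMIs do not measure. Car9, the carbonic anhydrase often used as a hypoxia marker, was close to absent: 6 and 57 UMIs in WT and TSK cancer cells (3.54 and 3.14 CPM), and from 0 to 9 UMIs in each other lineage and library. The 0 UMIs of WT neutrophils and of WT T cells allow levels of up to 27.0 and 0.914 CPM. The remaining members, Gpi1, Aldoa, Tpi1, Pgam1, Pkm, Egln3, P4ha1, Mxi1, Higd1a and Ddit4, were highest in different lineages in the libraries. Except for Mxi1, the interval of the highest lineage overlapped that of another in WT or in TSK. Egln3, a prolyl hydroxylase that HIF induces, led in cancer cells in WT (224 CPM) and in neutrophils in TSK (265). Its WT interval in cancer cells (202 to 248) overlapped that of neutrophils (110 to 278, from 20 UMIs).

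**Figure D2:**
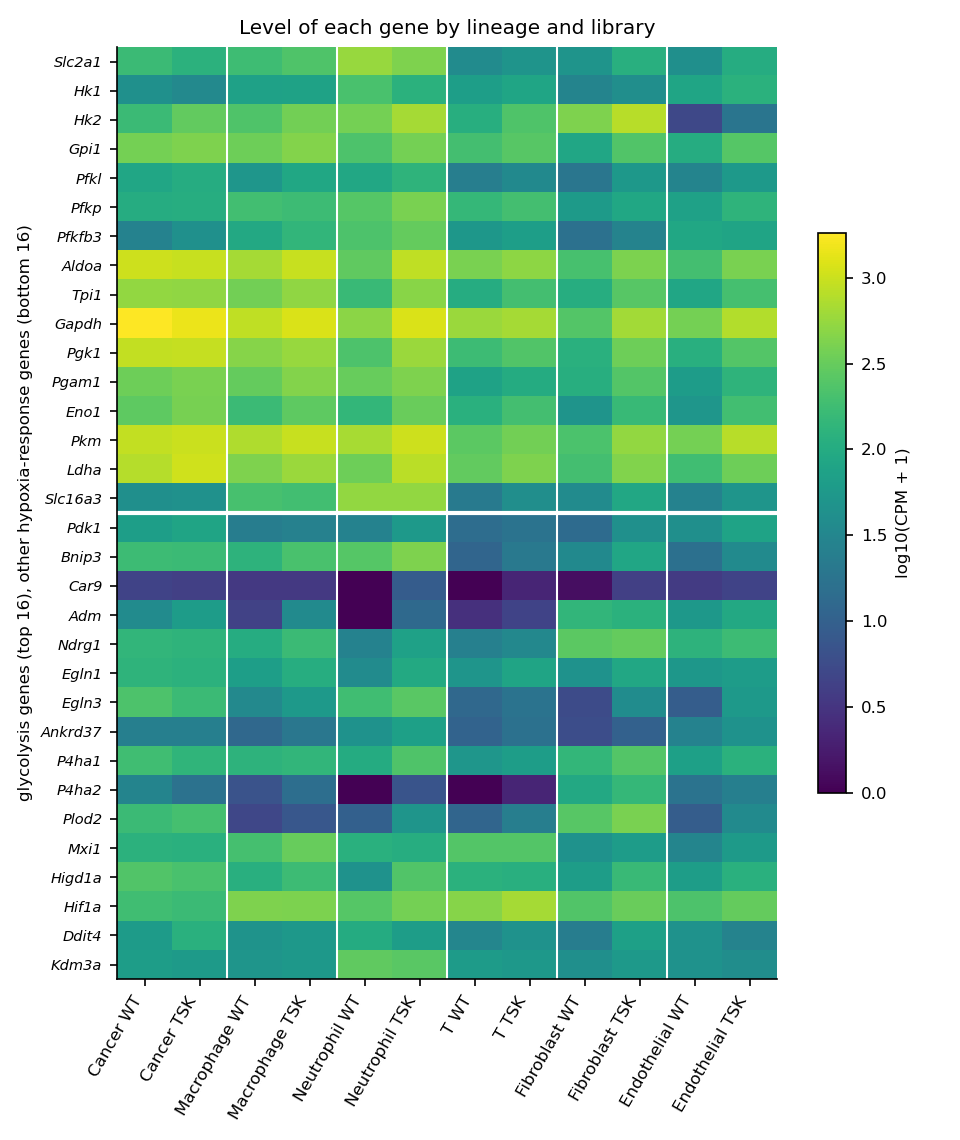
Colour gives log10(CPM + 1) of the 32 genes (rows, glycolysis above the horizontal white line) in each lineage and library (columns). Gapdh in cancer cells is the brightest cell (1811 CPM in WT), Hk2 is dark only in endothelial cells (4.07 and 17.4 CPM), and Car9 is dark throughout.

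Between hosts, the summed glycolysis level was higher in TSK in the 5 lineages other than cancer cells and nearly equal over all cancer cells. Lineages were named by markers, and whether the Hmga2 RNA in TSK fibroblasts and neutrophils was free RNA, came from doublets or was their own was not tested. The log2 ratio of TSK over WT was 1.20 in fibroblasts (1.15 to 1.24), 1.04 in endothelial cells (0.93 to 1.16), 0.76 in neutrophils (0.63 to 0.88), 0.44 in T cells (0.38 to 0.50), 0.43 in macrophages (0.40 to 0.46) and 0.06 in cancer cells (0.03 to 0.08). For the other hypoxia-response genes it was 0.62 in fibroblasts, 0.62 in endothelial cells, 0.66 in neutrophils, 0.32 in T cells, 0.41 in macrophages and -0.04 in cancer cells, whose interval held 0. The median gene of each lineage also shifted, by 0.41 in fibroblasts, 0.30 in endothelial cells, -0.05 in neutrophils, 0.14 in T cells, 0.20 in macrophages and 0.19 in cancer cells. Relative to that shift the glycolysis ratios were 0.78, 0.75, 0.81, 0.30, 0.23 and -0.13, so that the direction in cancer cells turned, and the hypoxia ratios 0.20, 0.33, 0.71, 0.18, 0.21 and -0.23. Cell cycle genes (12 genes) were higher in TSK in all 6 lineages as well. Their smallest log2 ratio was 0.86 in T cells, and fibroblasts had 3.01. The largest, 3.14 in neutrophils (1.56 to 5.44), rested on 3 UMIs in WT. Stress genes of tissue digestion (10 genes) went in both directions, from -0.57 in endothelial cells to 0.72 in cancer cells. Oxidative genes were higher in TSK in all 6 too, by 0.65 in fibroblasts, 0.51 in endothelial cells, 1.25 in neutrophils, 0.35 in T cells, 0.29 in macrophages and 0.22 in cancer cells. The part of proliferation, depth and digestion in the glycolysis ratios was not tested.

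**Figure D3:**
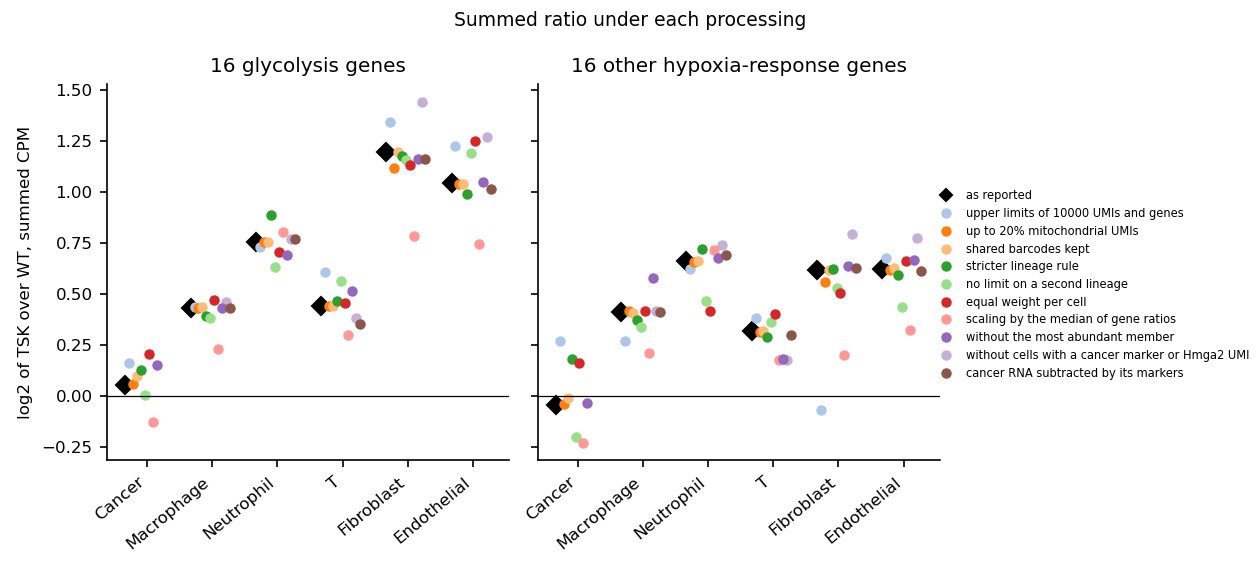
The log2 ratio of TSK over WT of the summed CPM (vertical axis) in each lineage for both gene lists; the diamond is the reported value and each point another processing. Glycolysis lay above 0 under every processing shown in the 5 other lineages (lowest 0.23, in macrophages), turned to -0.13 in cancer cells with median-of-ratios scaling, and the hypoxia list turned to -0.065 in fibroblasts with the upper limit of 10000 UMIs and took both signs in cancer cells.

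In fibroblasts every glycolysis gene had a higher level in TSK than in WT, and 12 of the 16 differed by at least 2-fold. Of the other hypoxia-response genes, 5 of the 14 with at least 50 UMIs did. In all, 17 of 30 members were at least 2-fold higher and 0 lower, where 15.3% of all genes were higher and 3.3% lower. After median-of-ratios scaling the count was 7, and the share of all genes after that scaling is not given. The median log2 ratio was 1.26 over the glycolysis genes and 0.71 over the others, against 0.41 over all genes.

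Among the glycolysis genes of fibroblasts, Eno1 had the largest ratio, with 143 UMIs in WT and 451 in TSK, 47.3 and 155 CPM and a log2 ratio of 1.72 (1.44 to 2.0). Pgk1 went from 115 to 345 CPM (1.58), Pfkl from 17.8 to 53.1 (1.57), and Gapdh from 242 to 642 (1.41). The smallest ratios were those of Hk1 (28.8 and 39.96 CPM, 0.47), Pfkp (0.55) and Pfkfb3 (0.84). Hk2, the glycolysis gene with the most UMIs there (1281 and 2321), differed by 0.92.

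Of the other hypoxia-response genes in fibroblasts, Egln3 had 14 UMIs in WT and 108 in TSK, 4.63 and 37.2 CPM, a log2 ratio of 3.01 (2.20 to 3.93). This value fell to 1.03 without the cells that held a UMI of a cancer marker or of Hmga2, and that of Pdk1 from 1.73 to 0.44. Ddit4, an inhibitor of mTORC1, differed by 1.63 (22.8 and 70.6 CPM), Higd1a, a mitochondrial protein, by 1.32, and Bnip3, a mitophagy receptor, by 1.30. Their ratios were 1.87, 1.88 and 1.69 without those cells. Adm (138 and 120 CPM, log2 ratio -0.20, -0.41 to 0.01) and Ndrg1 (269 and 305 CPM, 0.18) were closest to equal. Kdm3a, a histone demethylase (0.49), and Mxi1, a MYC antagonist (0.48), were also low. Without the cells that held a UMI of a cancer marker or of Hmga2 they turned to -0.44 and -0.25. Collagen enzymes lay between, with 0.65 for Plod2, 0.67 for P4ha2 and 0.75 for P4ha1.

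Cells with a UMI of a cancer marker or of Hmga2 made up 14.4% of WT and 44.2% of TSK fibroblasts. Without them the summed glycolysis ratio was 1.44 and the hypoxia ratio 0.79, while Egln3 and Pdk1 were lower as given above. With cancer RNA subtracted in proportion to the cancer markers, the glycolysis ratio was 1.16. In TSK fibroblasts these markers stood at 4.26% of the cancer level and Hmga2 at 43.2%, so the subtraction was scaled to the lower of these levels. With at most 10000 UMIs per cell, which left 37 WT and 121 TSK fibroblasts, glycolysis gave 1.34 and the hypoxia list -0.065. Fibroblasts were also divided, after their values were seen, by UMIs of Clec3b, Pi16 or Cd34, genes of resting fibroblasts, in cells thinned to 1000 UMIs. Glycolysis was 1778 CPM in WT and 3910.3 in TSK cells with such a UMI, and 2253 and 4965 in those without. The log2 ratio of TSK over WT was 1.14 in both parts for glycolysis, and 0.76 with and 0.38 without for the hypoxia list. Hmga2 stood at 39.6 CPM in the TSK cells with and 325 in those without, against 441 in TSK cancer cells. In WT it stood at 1.56 and 13.8 CPM, against 509 in cancer cells. Exactly 1 UMI of Clec3b, Pi16 or Cd34 was held by 24 WT and 44 TSK cells.

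**Figure D4:**
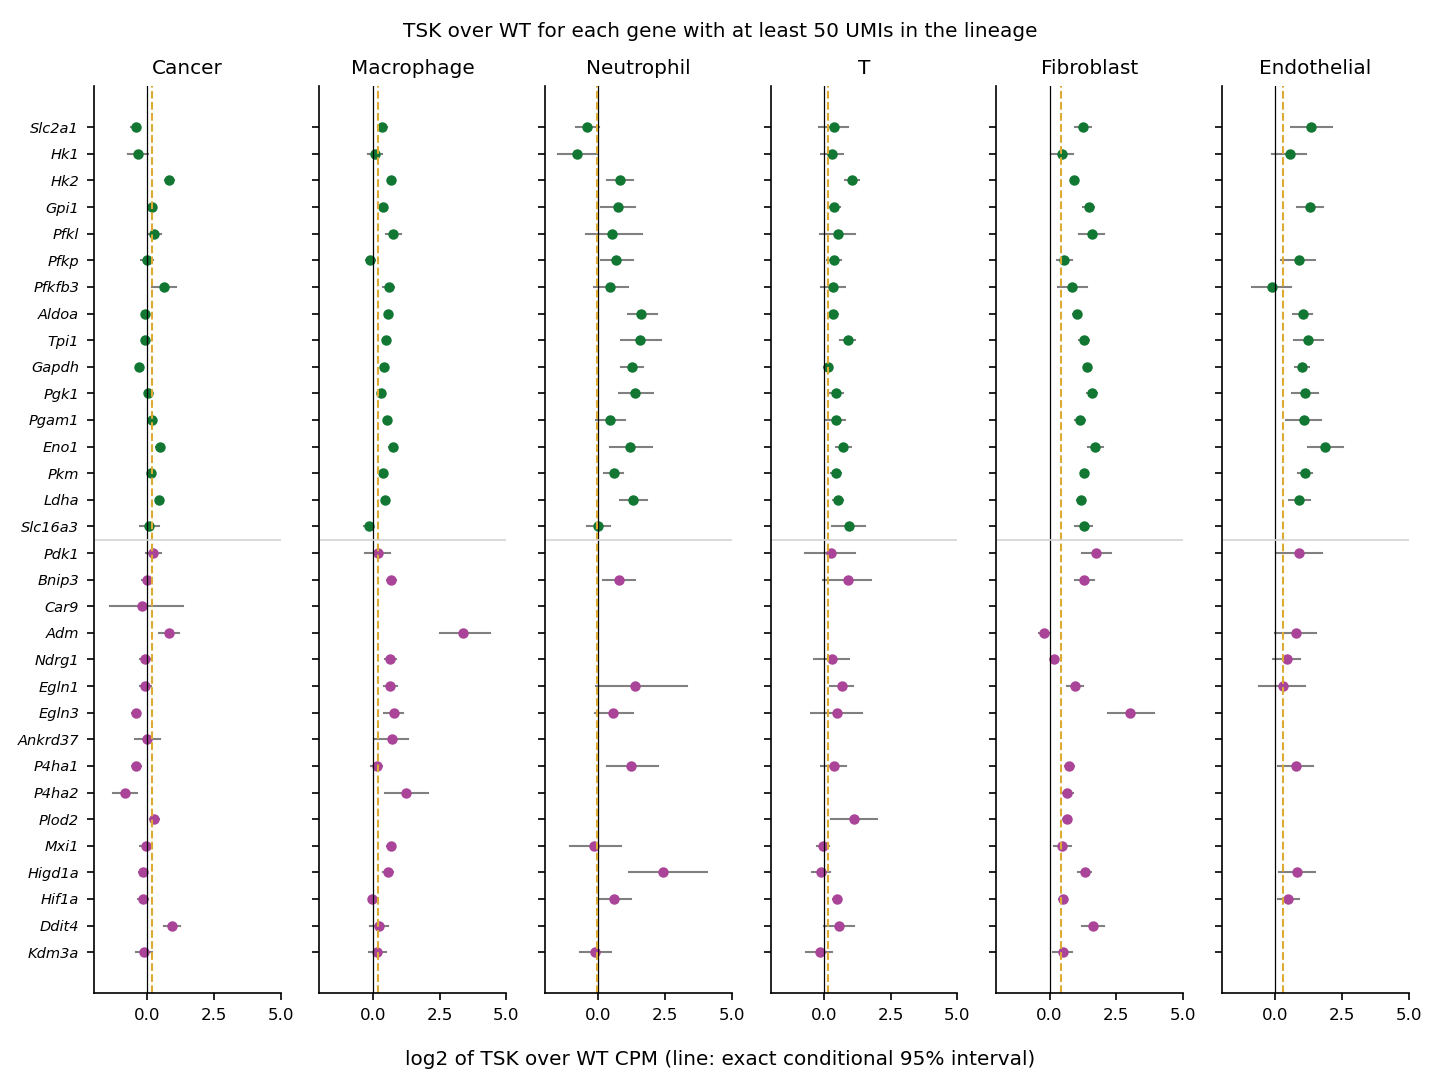
The log2 ratio of TSK over WT CPM (horizontal axes) of each gene with at least 50 UMIs in the lineage, with exact conditional 95% intervals; green points are glycolysis genes, purple points the others, the black line is 0 and the dashed line the median of all genes. In fibroblasts 28 of 30 points lie right of the dashed line and in cancer cells 10 of 32.

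Endothelial cells, with 46 and 37 cells, gave the same direction from fewer molecules. Glycolysis genes at least 2-fold higher in TSK numbered 9 of 13, and 0 of 7 other hypoxia-response genes reached that size, where 10% of all genes were higher and 4.37% lower; 0 members were lower. The count of 9 varied with the processing: it was 3 with median-of-ratios scaling, 2 with at most 10000 UMIs per cell (19 WT and 26 TSK cells) and 15 with no limit on markers of a second lineage (65 and 61 cells). With at most 10000 UMIs the summed glycolysis ratio was 1.22. Members that fall below 50 UMIs drop out of a count, and the shares of all genes under these alternatives are not given. Eno1 was the largest, at 50.1 CPM (37 UMIs) in WT and 184 (53 UMIs) in TSK, a log2 ratio of 1.88 (1.24 to 2.52). Slc2a1 (40.7 and 104 CPM, 1.36), Gpi1 (1.30), the isomerase that follows hexokinase, and Tpi1 (1.24), the triose isomerase, came next. Pfkfb3, which endothelial cells use in sprouting, had 86.7 and 79.9 CPM (-0.12, -0.87 to 0.59).

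In neutrophils 9 of 24 members were at least 2-fold higher in TSK and 0 lower, where 20.8% of all genes were higher and 13% lower. The WT value comes from 34 cells and 111035 UMIs. Higd1a had 5 UMIs in WT and 120 in TSK (45.0 and 239 CPM), a log2 ratio of 2.41 (1.14 to 4.05). Aldoa, the aldolase, went from 288 to 883 CPM (1.62), Tpi1 from 162 to 475 (1.55), Pgk1 from 225 to 585 (1.38) and Ldha from 342 to 841 (1.30). Both transporters and Hk1 were not higher: Slc2a1 stood at 567 and 424 CPM (-0.42, -0.83 to 0.01), Hk1 at 207 and 119 (-0.80, -1.51 to -0.03) and Slc16a3 at 531 and 529 (-0.01). Hk2 went from 378 to 660 CPM (0.80), Mxi1 stood at -0.15 and Kdm3a at -0.13. Without cells holding a UMI of a cancer marker or of Hmga2 (23.0% of the TSK neutrophils), Higd1a gave 2.54, Aldoa 1.50, Tpi1 1.29 and Hk1 -0.55. The genes of oxidative metabolism had a larger summed ratio here than glycolysis, 1.25 (0.87 to 1.66), from 59 UMIs in WT.

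In macrophages 27 of 30 members had a ratio above 0 and 23 of 30 a ratio above that of the median gene (0.20), mostly by less than 2-fold. Those at or above 2-fold were 2, and 0 were lower, where 4.47% of all genes were higher and 1.88% lower. Adm had 12 UMIs in 3573447 in WT and 101 in 2870041 in TSK, 3.36 and 35.2 CPM. Its log2 ratio was 3.39 (2.52 to 4.39), and it was 3.31 without cells holding a UMI of a cancer marker or of Hmga2. P4ha2 was the other, with 21 and 40 UMIs (1.25). Eno1 (166 and 283 CPM, 0.77), Pfkl (0.77) and Egln3 (0.79) followed. Slc16a3 (206 and 185 CPM, -0.15), Pfkp (-0.10) and Hif1a (419 and 407, -0.04) had the lowest ratios.

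In T cells all 16 glycolysis genes had ratios above 0 and above the median gene, with a median of 0.45, as in macrophages (0.45). Members at least 2-fold higher were 2 of 28, and 0 were lower, where 2.36% of all genes were higher and 1.8% lower. They were Hk2 (111 and 228 CPM, 1.04, 0.78 to 1.30) and Plod2 (35 and 20 UMIs, 1.14). The count was 0 with median-of-ratios scaling and 0 without cells holding a UMI of a cancer marker or of Hmga2. Shares of all genes under these alternatives are not given. Slc16a3 (0.93), Bnip3 (0.91) and Tpi1 (0.89) came next, and Kdm3a (-0.17), Higd1a (-0.11) and Mxi1 (-0.02) came last. Hif1a differed by 0.49 (468 and 658 CPM).

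Cancer cells had 15 of 32 members above and 17 below 0, and 0 of 32 at least 2-fold higher or lower, where 9.69% of all genes were higher and 5.99% lower. The largest ratios were those of Ddit4 (60.8 and 116 CPM, 0.93, 0.64 to 1.23), Hk2 (167 and 298, 0.84), Adm (36.0 and 62.8, 0.80), Pfkfb3 (27.2 and 41.9, 0.62) and Eno1 (0.47). The smallest were those of P4ha2 (28.9 and 16.1 CPM, -0.84), Slc2a1 (167 and 124, -0.43), Egln3 (224 and 168, -0.42), P4ha1 (-0.41) and Hk1 (-0.36), and Gapdh stood at -0.31. The WT cancer cells numbered only 55, and with at most 10000 UMIs 16 remained. At that limit 5 members were at least 2-fold higher and 1 lower, and the share of all genes is not given.

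Other genes of the pathway, 19 of glycolysis and 31 of the hypoxia response, did not follow the members in every lineage. Summed, the other glycolysis genes had a log2 ratio of -0.20 in macrophages (-0.36 to -0.04). It was -0.47 in neutrophils (-0.87 to -0.06) and -0.10 in T cells (-0.38 to 0.17). The members had 0.43, 0.76 and 0.44 there. Elsewhere it was 0.25 in cancer cells, 0.21 in fibroblasts and 1.01 in endothelial cells (0.21 to 1.80, from 33 and 26 UMIs). Few of the 19 genes reached 50 UMIs: 2 in neutrophils, 2 in T cells and 0 in endothelial cells. The hexokinase Hk3 alone made up 306 of 612 CPM in WT neutrophils and 97.5 of 442 in TSK. The neutrophil ratio without Hk3 was not taken. The other hypoxia genes gave -0.07 in cancer cells, 0.20 in macrophages, 0.11 in neutrophils, 0.14 in T cells, 0.58 in fibroblasts and 0.44 in endothelial cells. In fibroblasts 7 of 26 hypoxia genes were at least 2-fold higher and 1 lower, where 15.3% of all genes were higher and 3.3% lower. The higher ones were Slc2a3, Ero1l, a protein-folding oxidase (35.7 and 158 CPM, 2.15), Mif, a cytokine (188 and 599, 1.67), Pgf, a placental growth factor (14 and 95 UMIs, 2.82), Gys1, the glycogen synthase (1.41), Fam162a (1.37) and Vldlr (1.37), while Epas1, which encodes HIF-2α, went from 129 to 45.8 CPM (-1.50, -1.79 to -1.21). The glucose transporter Slc2a3 (6.94 and 26.5 CPM, 1.93), which both lists hold, was the 1 of 4 other glycolysis genes at that size. In neutrophils Mif (288 and 1010.4 CPM, 1.81), Fam162a (1.82) and Bnip3l, a mitophagy receptor (1.60), were higher. Hk3, a myeloid hexokinase (306 and 97.5 CPM, -1.65), and Gbe1, the glycogen branching enzyme (-1.47), were lower. These made 3 of 12 hypoxia genes higher and 1 lower, and 1 of 2 other glycolysis genes lower. Among all genes 20.8% were higher and 13% lower, so that the hypoxia shares were near those of all genes. In endothelial cells 4 of 12 hypoxia genes were higher, where 10% of all genes were: Mif (1.73), Plod1 (1.26), Ero1l (1.09) and P4hb (1.06). In cancer cells Pgf had 0 UMIs in WT and 88 in TSK, at least 2.73-fold higher when 0 is read as up to 3 UMIs. Eno1b (1.32) and Pfkfb2 (1.04, from 3 and 66 UMIs, -0.57 to 3.35) also passed. These were 1 of 27 hypoxia and 2 of 11 other glycolysis genes, where 9.69% of all genes were higher. Pgf and Pfkfb2 reached 50 UMIs through TSK alone. Macrophages and T cells had 0 other glycolysis or hypoxia genes of this size. Oxidative genes at least 2-fold higher were 3 of 22 in fibroblasts (Fh1 1.37, Cyc1 1.12 and Idh2 1.06) and 1 of 22 in macrophages (Idh2, 1.44), shares near those of all genes (15.3% and 4.47%). In neutrophils they were 4 of the 6 with at least 50 UMIs, where 20.8% of all genes were. Cox5a had 1 UMI in WT (log2 ratio 3.55, 1.01 to 8.88), Atp5b 7 (1.52), Cox4i1 10 (1.46) and Cox5b 5 (1.36). The 50 UMIs were counted over both libraries, with 111035 UMIs in WT and 502776 in TSK neutrophils. Genes with so few WT UMIs passed mainly through TSK, so that this count describes only the genes that passed.

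Within the macrophages, Arg1 divided cells of high and low glycolysis. Arg1 encodes arginase 1, an enzyme of tumor macrophages. Cells were thinned to 1000 UMIs to decide whether they held an Arg1 UMI, which left out 4 WT and 23 TSK cells of fewer UMIs, and levels were taken from all UMIs. With Arg1, 145 WT cells (49.7%) had 7355 CPM of glycolysis genes and 147 without had 2745, a log2 ratio of 1.42 (1.37 to 1.47). In TSK, 216 cells with (56.7%) had 9253 CPM and 165 without had 4269, a log2 ratio of 1.12 (1.07 to 1.16). The other hypoxia-response genes stood at 1687 and 873 CPM in WT and at 2247 and 1086 in TSK (0.95 and 1.05), whereas the oxidative genes differed by only 0.10 in both libraries (2054 and 1914 CPM in WT, 2502 and 2340 in TSK). Cells with Arg1 were deeper, with medians of 11125 against 9438 UMIs in WT and 6790.0 against 6362 in TSK. Stress genes of tissue digestion were lower in them, at 3700 against 4617 CPM in WT and 3963 against 5062 in TSK. The part of depth and digestion was not tested. A share of cells, 23 in WT and 35 in TSK, held exactly 1 Arg1 UMI and lay near the division.

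In each library 11 of 16 glycolysis genes were at least 2-fold higher in cells with Arg1, where 5.08% of all genes were in WT and 3.87% in TSK. Of the others, 7 of 11 in WT and 7 of 13 in TSK were. Egln3 (2.86 in WT and 2.71 in TSK), Ddit4 (2.54 and 2.35) and Bnip3 (2.35 and 1.69) had the largest log2 ratios by the mean of both libraries, followed by Pfkl (1.85 and 1.82) and Slc16a3 (1.66 and 1.73). These include the genes whose promoters are printed above. Slc2a1 gave 0.86 in WT and 1.80 in TSK. Pfkfb3 (-0.23 and -0.30), Kdm3a (-0.05 and 0.12), Hk1 (0.02 and 0.42) and Pfkp (0.12 and 0.37) had the smallest. Comparing hosts within each part, the log2 ratio of TSK over WT was 0.33 with Arg1 and 0.64 without for glycolysis, and 0.41 and 0.32 for the hypoxia list, so that both parts were higher in TSK.

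**Figure D5:**
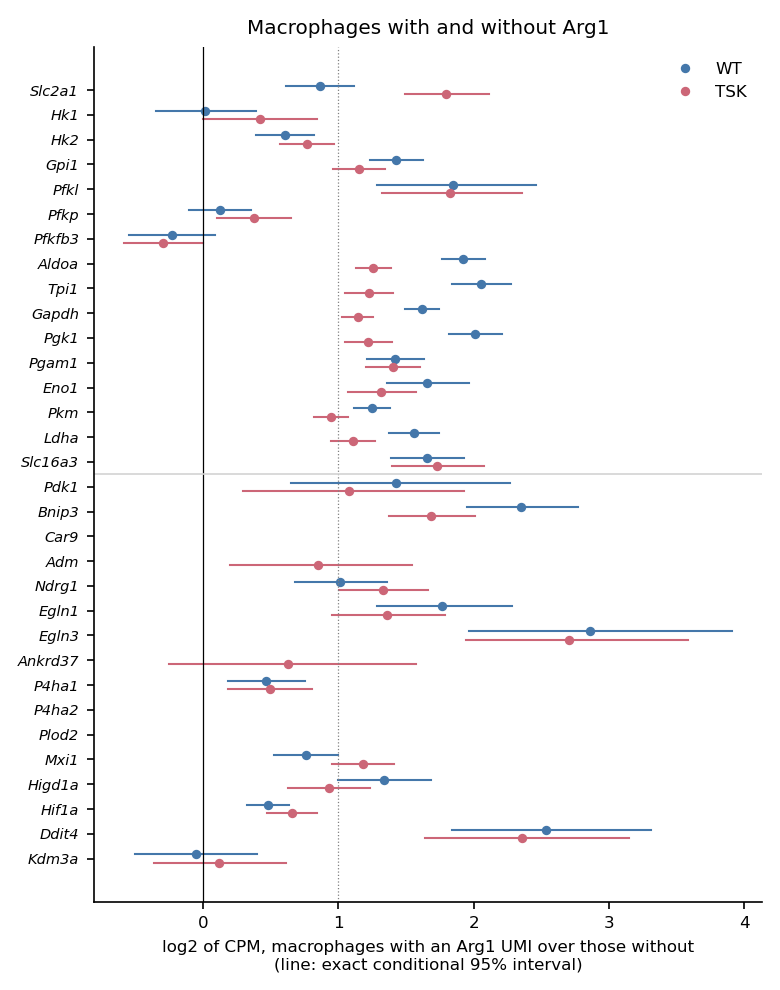
The log2 ratio of CPM in macrophages with an Arg1 UMI over those without (horizontal axis) for each gene with at least 50 UMIs in the library, WT and TSK apart, with exact conditional 95% intervals; the dotted line marks 2-fold. Egln3 and Ddit4 lie farthest to the right in both libraries and Pfkfb3 lies left of 0 in both libraries (-0.23 and -0.30).

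Among cancer cells, those with a UMI of a cell cycle gene after thinning to 1000 UMIs had lower levels of both lists. They were also deeper, with medians of 49417 against 21634.5 UMIs in WT and 34940.0 against 22584 in TSK, and the part of depth was not tested. Exactly 1 such UMI was held by 6 WT and 117 TSK cells. In WT, 13 such cells had 5435 CPM of glycolysis genes against 8598 in 42 others, a log2 ratio of -0.66, and 1102 against 2174 CPM of the other hypoxia-response genes (-0.98). In TSK, 353 and 257 cells gave 7497 and 8634 CPM (-0.20) and 1643 and 2026 CPM (-0.30). The oxidative genes went the other way, by 0.42 in WT and 0.18 in TSK. At least 2-fold lower were 1 of 15 glycolysis and 7 of 13 other genes in WT, where 8.17% of all genes were, and 0 of 16 and 1 of 16 in TSK, where 1.26% were. Adm (-3.18), Ndrg1 (-2.49) and Slc2a1 (-1.83) were lowest in WT among genes with at least 50 UMIs, and their TSK values were -0.39, -0.61 and -0.64. Between hosts, the ratio of TSK over WT was 0.46 for glycolysis and 0.58 for the hypoxia list in cells with a cell cycle UMI, of which WT had 13, and 0.01 and -0.10 in those without.

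In T cells the division by cell cycle genes gave no common direction. WT T cells with such a UMI (46 of 443) had 3455 CPM of glycolysis genes and those without 2551, a log2 ratio of 0.44 (0.36 to 0.52). In TSK the values were 3474 CPM in 75 cells and 3693 in 184 (-0.09, -0.20 to 0.03). Between hosts, the glycolysis ratio was 0.01 (-0.12 to 0.13) in the cycling part and 0.53 (0.46 to 0.60) in the rest. Cells near the division, with exactly 1 such UMI, numbered 38 in WT and 51 in TSK, so that most cells in the cycling part rested on 1 molecule.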

How the data were processed

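Raw UMI counts of 2 single-cell libraries (1 WT and 1 TSK, each pooled from 4 mice) were deposited by the authors without normalization. They came from Cell Ranger, version 7.1.1 per the submitters' processing notes and 7.1.0 per the file headers, on mm10. Barcodes of both libraries were removed, and cells with at least 200 genes, at least 500 UMIs and at most 10% mitochondrial UMIs were kept. A cell was named by the lineage with the most marker UMIs: at least 3 UMIs from at least 2 markers, at least 50% of all marker UMIs of 12 lists, and no second lineage with at least 3 UMIs from 2 markers at 300 CPM or more. This last limit was set after seeing the data. No doublet caller was run, so that doublets within a lineage, and those with few marker UMIs of a second, can remain.

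UMIs were summed per lineage and library and divided by all UMIs of the lineage (CPM). Exact Poisson intervals were given to levels and exact conditional intervals to ratios (scipy 1.17.1 in Python 3.11.15, tables with pandas 2.3.3 and numpy 2.4.6, figures with matplotlib 3.10.9). The ratio intervals were tested on drawn Poisson counts with known ratios, which hold no variation among cells, mice or libraries. Genes were compared by a 2-fold size, among genes with at least 50 UMIs over both libraries of the lineage, with no test because there is 1 library per genotype. In each lineage up to 5 members with the largest and up to 5 with the smallest ratio were named, with the most abundant and other pathway genes past 2-fold. Members, lists and divisions were chosen with earlier results of these data known. A UMI at the 3′ end does not tell isoforms such as those of Pkm apart. Alternatives were upper limits of 10000 UMIs and genes (the study's own limits), 20% mitochondrial UMIs, shared barcodes kept, a stricter naming rule (6 UMIs, 80%, 150 CPM), equal weight per cell, median-of-ratios scaling and sums without Gapdh or Hif1a. Added after seeing the data were no limit on a second lineage and removal of cells with a UMI of a cancer marker or of Hmga2. Subtraction of cancer RNA in proportion to the cancer markers was also added then. Lineages with fewer cells (31 WT and 44 TSK cells) were left out.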

Additional observations from a re-analysis of the deposited data

How the results depend on the processing

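Glycolysis stayed higher in TSK in the 5 lineages other than cancer cells under all alternatives run. Values are log2 ratios of TSK over WT unless named, and moves count as such past the counting interval. With at most 10000 UMIs and genes, glycolysis gave 0.17 in cancer cells, 0.61 in T cells, 1.34 in fibroblasts and 1.22 in endothelial cells, hypoxia 0.27 in cancer cells and 0.27 in macrophages, and in fibroblasts it turned to -0.065. Cancer over macrophage then gave 0.44 (WT) and 0.17 (TSK) for glycolysis and turned to -0.018 (WT) for hypoxia, with 5 members higher and 1 lower in cancer cells, 1 lower in fibroblasts and 2 higher in endothelial cells. With 20% mitochondrial UMIs fibroblasts gave 1.12 and 0.56 (hypoxia). With shared barcodes kept, cancer cells gave 0.097 with 2 members higher, and WT cancer over macrophage 0.46. The stricter naming rule gave glycolysis 0.13 in cancer cells, 0.39 in macrophages and 0.89 in neutrophils, hypoxia 0.18 in cancer cells, cancer over macrophage 0.42 and 0.16 (glycolysis) and 0.28 and 0.095 (hypoxia), and 1 member higher in cancer cells and 1 in T cells. With no limit on a second lineage, glycolysis gave 0.0053 in cancer cells, 0.38 in macrophages, 0.56 in T cells and 1.19 in endothelial cells, hypoxia -0.20 in cancer cells, 0.34 in macrophages and 0.53 in fibroblasts, cancer over macrophage 0.15 (glycolysis, TSK) and 0.58 (hypoxia, WT), and counts of 1 lower in neutrophils, 4 higher in T cells and 15 in endothelial cells. Equal weight per cell gave glycolysis 0.21 in cancer cells, 0.47 in macrophages, 1.13 in fibroblasts and 1.25 in endothelial cells, hypoxia 0.16 in cancer cells, 0.42 in neutrophils and 0.50 in fibroblasts, and cancer over macrophage 0.24 (glycolysis, TSK), 0.34 (hypoxia, WT) and 0.085 (hypoxia, TSK). Median-of-ratios scaling, which subtracts the shift of the median gene, turned glycolysis in cancer cells to -0.13 and gave 0.23 in macrophages, 0.30 in T cells, 0.78 in fibroblasts and 0.75 in endothelial cells, and hypoxia -0.23 in cancer cells, 0.21 in macrophages, 0.18 in T cells, 0.20 in fibroblasts and 0.33 in endothelial cells, with 1 member lower in cancer cells and 0 in T cells, 7 in fibroblasts and 3 in endothelial cells higher. Without Gapdh, glycolysis gave 0.16 in cancer cells and 0.51 in T cells, and cancer over macrophage 0.37 and 0.090. Without Hif1a, hypoxia gave 0.58 in macrophages and 0.18 in T cells, and cancer over macrophage 0.85 and 0.24. Removal of cells with a UMI of a cancer marker or of Hmga2 was chosen after seeing the data. So were the limit on a second lineage and the subtraction. Without those cells glycolysis gave 0.46 in macrophages, 0.38 in T cells, 1.44 in fibroblasts and 1.27 in endothelial cells, and cancer over macrophage 0.085 (TSK). Hypoxia then gave 0.18 in T cells and 0.79 in fibroblasts, with 1 member higher in macrophages and 0 in T cells. Subtracting cancer RNA gave 0.36 for glycolysis in T cells. The other 147 values stayed within the counting interval or, for counts, within 1.5 times. Among them, hypoxia cancer over macrophage in TSK (0.0033 as reported) changed sign. It went to -0.018 with at most 10000 UMIs and to -0.027 without cells with a UMI of a cancer marker or of Hmga2. Beyond the construction of each alternative, the cause was not tested. Counts of members with equal weight per cell were not run. Counting error was smallest in cancer cells and largest in WT neutrophils (111035 UMIs) and endothelial cells. No paired analysis was possible because each genotype has 1 library.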
